A study of Mus musculus with 2 samples.

Results

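The genes described here carry the insulin signal into the liver cell and the steps of hepatic glucose use that answer to feeding. They were chosen by name and were 9 in number: the insulin receptor Insr, its docking proteins Irs1 and Irs2, the transcription factor Foxo1, the regulatory protein gene Gckr, the glucose transporter Slc2a2 (GLUT2), the liver pyruvate kinase Pklr, and Pfkfb1 and Pfkfb3, which make and break down the activator of phosphofructokinase. Probes of 8 of the 9 genes were found by name and accession among the 27962 gene names of the array, 13 probes in all, and the expression of Irs2 was not analysed here. All 8 genes had a probe that passed the brightness filter and were among the 16730 genes tested.

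Liver RNA came from male apoE-KO mice of the C57BL/6 strain. From 10 weeks of age they received normal chow, or that chow with 1.25% cholesterol (the high-Chol diet), for 1 week. Each diet was measured in 3 independent experiments on one-colour Agilent arrays, and the labels do not say whether an array held RNA of 1 mouse or of several. The mice of both diets lacked apolipoprotein E, which carries remnant lipoproteins to the liver, so the data hold no comparison with normal mice, and no source used here gives the feeding state or the hour at which livers were taken. The 3 normal chow arrays lay at positions 1, 2 and 3 of slide 1. Of the high-Chol arrays, 1 lay at position 4 of slide 1 and the others at positions 2 and 3 of slide 2, which was read with another software version and was brighter, with a 75th percentile of signal of 762 and 799 against 271 to 373 on slide 1. Signals are therefore given as log2 values relative to the 75th percentile of their own array, always in this order of arrays, and each difference of the 8 genes is given also within slide 1, where a single high-Chol array stood against the 3 normal chow arrays. A level of one probe cannot be set against that of another.

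Insulin released after a meal binds its receptor on the hepatocyte, which phosphorylates the insulin receptor substrates. These recruit phosphoinositide 3-kinase, and the kinase Akt is activated, which drives FoxO1 out of the nucleus and so lowers transcription of genes for glucose output. Glucose enters the hepatocyte through GLUT2 and is phosphorylated there, a step that the product of Gckr restrains during fasting. Fructose 2,6-bisphosphate, made by the bifunctional enzymes of the Pfkfb family, speeds glycolysis, and liver pyruvate kinase completes it. Insulin and glucose raise transcription of several of these genes after feeding.

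On the high-Chol diet, Pfkfb3, Pklr, Pfkfb1, Foxo1, Slc2a2 and Gckr had lower mean signals than on normal chow, from 2.31-fold lower for Pfkfb3 to 1.33-fold lower for Gckr, while Irs1 and Insr had higher ones. None of these differences passed the test across all genes. By limma, 0 of the 8 genes were called at an adjusted p below 0.05, with adjusted p-values from 0.163 to 0.369, where 2.92% of all 16730 genes were called. At an unadjusted p below 0.05, 4 of the 8 passed (Gckr, Pfkfb1 and Pfkfb3, lower, and Irs1, higher), against 21.2% of all genes, and the methods' t-test gave 1 at that level and 0 after adjustment. With slide as a block, 0 of the 8 had an unadjusted p below 0.05. The mean was lower on the high-Chol diet for 6 of the 8 genes, and their median log2 difference was -0.64 (-0.33 within slide 1), where 52.2% of all genes were lower and the median was -0.02. The arrays of the diets did not overlap for 4 of the 8 genes, against 25.8% of the 16438 genes measured on 6 arrays. In whole liver, fewer cells of a type and less RNA per cell cannot be told apart. Leaving out 1 array made a call of 1 gene alone, Pfkfb1, in a fit that set slide against slide, as given below.

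**Figure D1:**
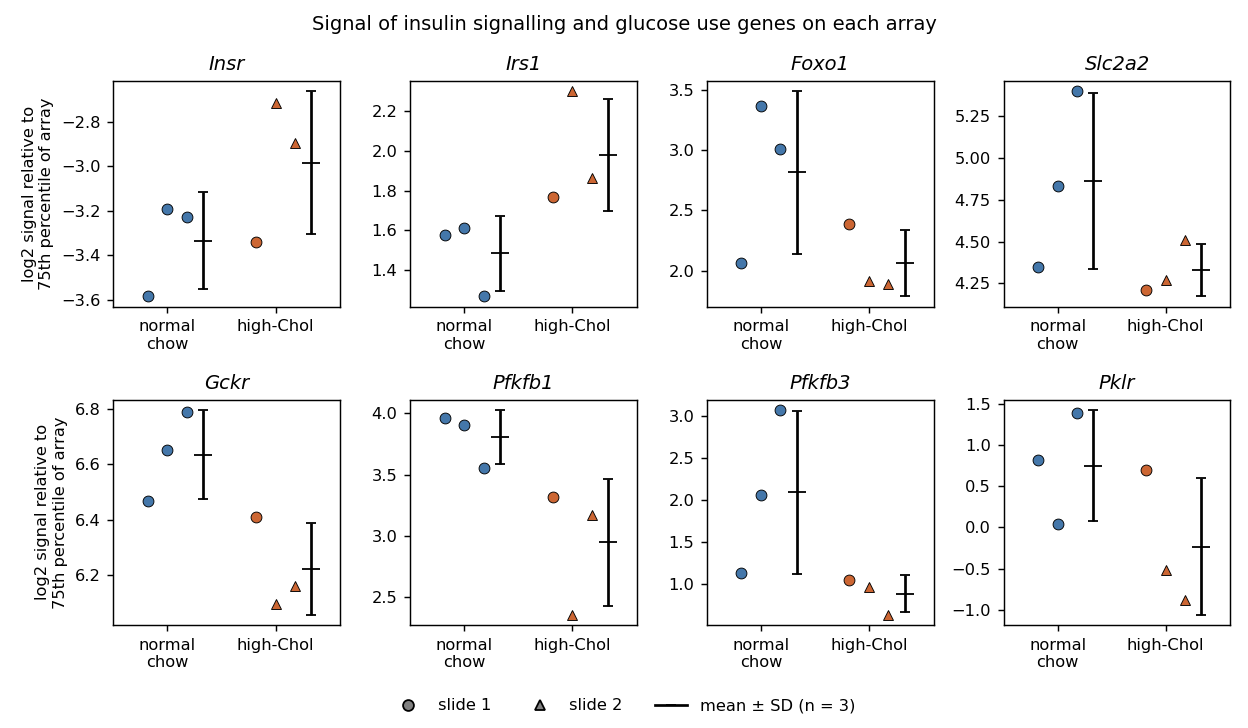
Log2 signal relative to the 75th percentile of the array (vertical axis) for each of the 8 genes on the normal chow and high-Chol arrays, circles for slide 1 and triangles for slide 2, with the mean ± SD of 3 arrays beside each diet. The diets do not overlap for Irs1, Gckr, Pfkfb1 and Pfkfb3, and the slide 1 high-Chol array lies nearer to the normal chow arrays than the slide 2 arrays do for 7 of the 8 genes, Slc2a2 being the exception.

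The insulin receptor gene gave a dim signal. The Insr probe (mm7, chromosome 8, 3058920 to 3058979, minus strand) was well above background on 2 of 3 normal chow arrays and on 3 of 3 high-Chol arrays. Its log2 signals were -3.59, -3.19 and -3.23 on normal chow, against -3.34, -2.72 and -2.89 on the high-Chol diet. The slide 2 arrays were the highest, and the slide 1 high-Chol array lay among the normal chow arrays. The log2 difference was 0.35 (SE 0.21, limma adjusted p = 0.369), and within slide 1 it was -0.01. The difference thus rested on the slide 2 arrays, and after another background correction (normexp) it was -0.51. It was 0.12 after median scaling and after quantile normalization, 0.23 without the normal chow array at position 1, 0.22 without the slide 2 array at position 2, and 0.53 without the slide 1 high-Chol array.

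Irs1, the substrate through which the activated receptor reaches phosphoinositide 3-kinase, gave higher signals on the high-Chol diet. The brighter of its probes (mm7, chromosome 1, 82447810 to 82447869, minus strand), designed from a cDNA clone, read 1.58, 1.61 and 1.27 on normal chow, against 1.77, 2.30 and 1.87 on the high-Chol diet. All high-Chol arrays were above all normal chow arrays, by 0.49 on the log2 scale or 1.41-fold (SE 0.20, limma adjusted p = 0.222), and the exact two-sided permutation p was 0.1, the smallest that 3 against 3 arrays allow. Within slide 1 the difference was 0.28, the slide 2 arrays alone stood 0.60 above normal chow, and after median scaling the difference was 0.26. The other Irs1 probe, from the reference transcript (chromosome 1, 82451682 to 82451741), was near background, at -4.59, -4.22 and -4.36 against -4.24, -3.60 and -3.86. Its difference was 0.49, but 0.15 within slide 1, and its diets overlapped.

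Foxo1, the transcription factor that insulin keeps out of the nucleus, had lower mean signals on the high-Chol diet, and the diets overlapped. Its brighter probe (mm7, chromosome 3, 52472787 to 52472846, plus strand) read 2.06, 3.37 and 3.01 on normal chow, against 2.38, 1.92 and 1.89 on the high-Chol diet. The normal chow array at position 1 was below the slide 1 high-Chol array, and the other normal chow arrays were above all others. The log2 difference was -0.75 (SE 0.34, limma adjusted p = 0.257), -0.43 within slide 1, -1.13 without the position 1 array, -0.48 without the position 2 array and -0.50 after normexp correction. The other probe, further along the transcript at 52475893 to 52475952, read 1.55, 2.77 and 2.49 against 1.92, 1.51 and 1.62, so that the low first array was seen at both probes. Foxo1 was among the genes the study listed from these same arrays, so its direction here is not independent evidence.

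Slc2a2 encodes GLUT2, the transporter through which glucose enters and leaves the hepatocyte. Its brighter probe (mm7, chromosome 3, 28543803 to 28543862, plus strand) read 4.35, 4.83 and 5.40 on normal chow, against 4.21, 4.27 and 4.51 on the high-Chol diet. The position 1 normal chow array lay among the high-Chol arrays, and the log2 difference was -0.53 (SE 0.27, limma adjusted p = 0.302), -0.65 within slide 1, -0.26 without the position 3 array and -0.28 after normexp correction. The other probe crosses an exon junction inside the transcript (chromosome 3, 28542040 to 28542748) and is shown because its diets, unlike those of the brighter probe, did not overlap.
Slc2a2 junction probe: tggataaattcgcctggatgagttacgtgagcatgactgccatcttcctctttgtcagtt
This probe read 2.73, 2.83 and 3.63 on normal chow, against 2.44, 1.90 and 2.19 on the high-Chol diet. Every high-Chol array was below every normal chow array, by -0.88 on the log2 scale (1.85-fold lower, and -0.62 within slide 1) with a limma adjusted p of 0.160 when each probe was fitted by itself. The probe was singled out after its values were seen. Both GLUT2 probes put the position 3 normal chow array highest.

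Gckr, whose product is a nuclear inhibitor of hepatic glucose phosphorylation, had the smallest spread of the 8 genes among normal chow arrays. Its probe (mm7, chromosome 5, 30359726 to 30359785, plus strand) read 6.47, 6.65 and 6.79 on normal chow, against 6.41, 6.10 and 6.16 on the high-Chol diet. The diets did not overlap, but the slide 1 high-Chol array was close below the lowest normal chow array. The log2 difference was -0.41 (SE 0.17, limma adjusted p = 0.223, exact two-sided permutation p = 0.1), and -0.22 within slide 1. After normexp correction it was -0.04, after quantile normalization -0.26 and after median scaling -0.65.

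Pfkfb1 encodes the liver form of the enzyme that sets the level of fructose 2,6-bisphosphate, and it had the lowest adjusted p of the 8 genes. Its probe (mm7, chromosome X, 145402403 to 145402462, plus strand) read 3.96, 3.91 and 3.55 on normal chow, against 3.32, 2.35 and 3.17 on the high-Chol diet. The diets did not overlap, and the position 2 array of slide 2 was lowest by a wide margin. The log2 difference was -0.86, or 1.82-fold lower (SE 0.28, limma adjusted p = 0.163, exact two-sided permutation p = 0.1), and within slide 1 it was -0.49. Without the position 2 array of slide 2 it was -0.57, as it was after normexp correction. Without the slide 1 high-Chol array, so with slide against slide, the difference was -1.05 and its adjusted p 0.048. In that fit 2316 genes were called higher and 761 lower of all 16730. The diets there lie on separate slides, and diet and slide cannot be told apart.

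Pfkfb3, the form of the same enzyme that is widespread among tissues and strongly inducible, had the largest mean difference of the 8 genes. Its bright probe (mm7, chromosome 2, 11411110 to 11411169, minus strand) read 1.13, 2.06 and 3.07 on normal chow, against 1.05, 0.96 and 0.63 on the high-Chol diet. The high-Chol arrays lay close together below all normal chow arrays, and the normal chow arrays were spread over a range wider than the difference between diets. The mean was 2.09 ± 0.97 (SD, n = 3) on normal chow, against 0.88 ± 0.22 (SD, n = 3) in livers of the high-Chol diet, a log2 difference of -1.21 or 2.31-fold (SE 0.45, limma adjusted p = 0.200, exact two-sided permutation p = 0.1). Within slide 1 it was -1.04. Without the position 3 normal chow array it was -0.72, and without the position 1 array -1.68.

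The transcript is covered by further Pfkfb3 probes upstream, both across exon junctions. They are shown because they report another stretch of the same transcript, though at a signal too low for the test.
Pfkfb3 junction probe at 11429504 to 11431766: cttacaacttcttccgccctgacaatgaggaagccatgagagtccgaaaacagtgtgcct
Pfkfb3 junction probe at 11421720 to 11423133: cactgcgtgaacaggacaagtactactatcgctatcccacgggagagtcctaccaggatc
The first of these was well above background on 2 of 3 normal chow arrays and on 0 of 3 high-Chol arrays, with signals of -5.67, -3.86 and -3.57 against -5.18, -4.83 and -4.90. The other was well above background on 2 of 3 and 1 of 3 arrays, at -4.39, -3.50 and -2.94 against -5.35, -5.01 and -4.13. No fold is given for either, since values of both diets were not above background.

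**Figure D2:**
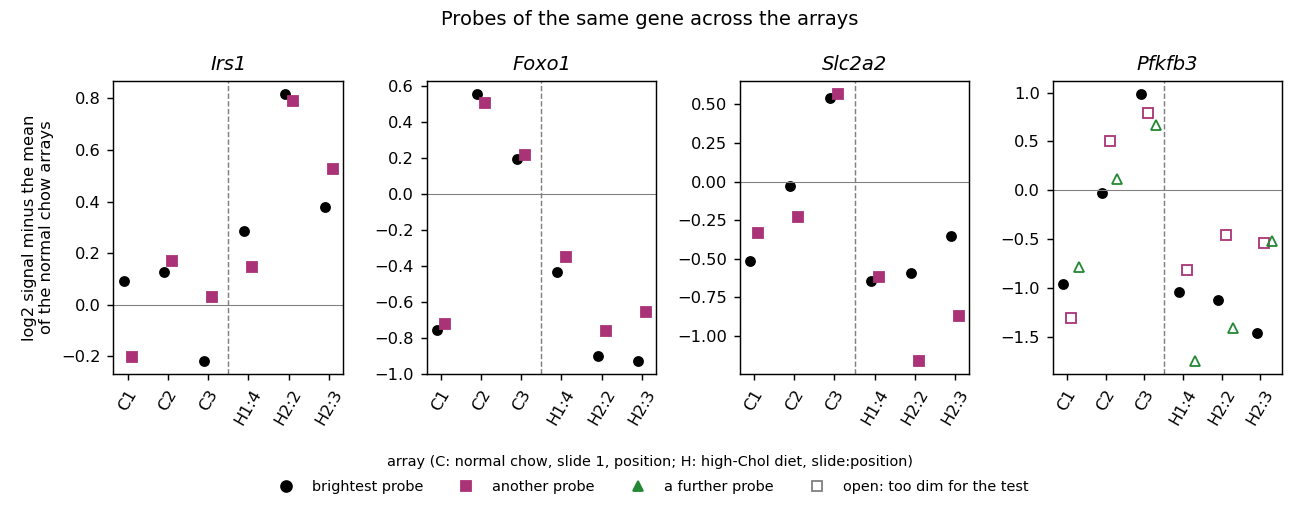
Log2 signal of every probe of Irs1, Foxo1, Slc2a2 and Pfkfb3 minus the probe's own mean over the normal chow arrays (vertical axis), by array, with open symbols for probes too dim for the test. At both Foxo1 probes the normal chow array at position 1 lies lowest of its diet, and at both Slc2a2 probes the array at position 3 lies highest. Open symbols include values not above background, whose order carries no information.

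Pklr encodes the pyruvate kinase of liver, the last enzyme of glycolysis and a textbook target of the carbohydrate response element binding protein. Its probe crosses an exon junction (mm7, chromosome 3, 89271395 to 89271913, plus strand), so it reads spliced RNA of this gene.
Pklr junction probe: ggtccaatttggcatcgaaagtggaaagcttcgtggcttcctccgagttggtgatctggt
It read 0.82, 0.04 and 1.39 on normal chow, against 0.70, -0.52 and -0.88 on the high-Chol diet. The slide 1 high-Chol array stood among the normal chow arrays, while the slide 2 arrays were below all of slide 1. The log2 difference was -0.98 (SE 0.48, limma adjusted p = 0.282), but -0.05 within slide 1 and -1.45 for the slide 2 arrays alone against normal chow. Diet and slide cannot be told apart in that last value. After normexp correction the difference was -0.54.

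The promoter of Pklr holds the sequence for which this gene is known. In the RefSeq window of its liver transcript (GRCm38.p6, chr3:89136423-89136572, plus strand, 200 to 51 bases before the start), the capitals mark a match to the carbohydrate response element, searched on both strands as the E-box half-sites CANGNG and CNCNTG 5 bases apart.
Pklr promoter: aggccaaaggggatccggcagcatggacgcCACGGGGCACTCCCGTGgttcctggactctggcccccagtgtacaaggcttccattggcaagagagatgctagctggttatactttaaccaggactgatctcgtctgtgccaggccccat
Of 32851 such windows of 300 bases, 0.557% held a match, and among the 13 windows of 8 of the genes chosen here, Irs2 included and Insr not searched, Pklr had the 1 match. An E-box CACGTG, whose letters the looser element can contain, stood in a window of Irs1, of Pfkfb3 and of Irs2, and in 7.15% of all windows. A FoxO core GTAAACA was in 0 of the 13 windows and in 3.65% of all. A match is a description of the letters and no measurement of binding. Among the regulators of this response, Mlxipl, the carbohydrate response element binding protein itself, read 4.79, 4.98 and 4.84 against 4.96, 4.55 and 4.09, a log2 difference of -0.34 (limma adjusted p = 0.416), but 0.09 within slide 1. Txnip, a glucose-induced gene, read 2.20, 2.65 and 2.81 against 1.70, 2.01 and 1.81, with no overlap between diets and a difference of -0.71 (limma adjusted p = 0.128), -0.85 within slide 1.

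**Figure D3:**
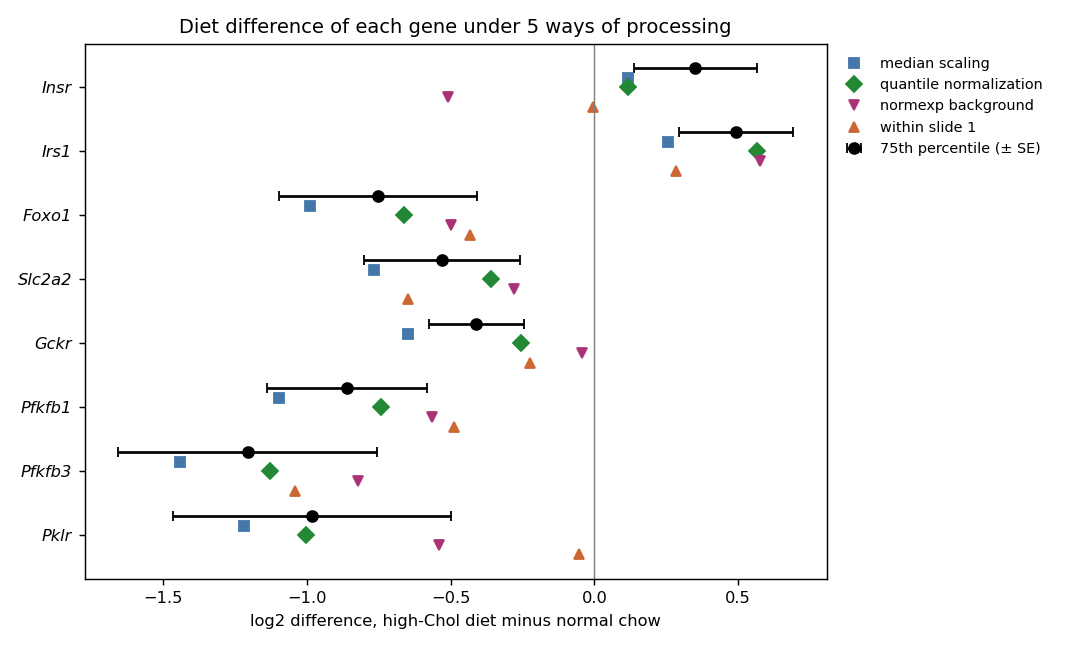
Log2 difference between the diets, high-Chol minus normal chow (horizontal axis), for each gene as scaled to the 75th percentile with its SE, after median scaling, quantile normalization and normexp background correction, and within slide 1. Irs1 stays above 0 and Foxo1, Slc2a2, Gckr, Pfkfb1, Pfkfb3 and Pklr stay below 0 under all of these, while Insr lies on either side. Pklr within slide 1 (-0.05) and Gckr after normexp correction (-0.04) lie close to 0.

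Of 20 further signalling genes tested, from phosphoinositide 3-kinase to mTOR, 17 had lower and 3 higher means on the high-Chol diet, 0 were called, 3 had an unadjusted limma p below 0.05, and the median difference was -0.17 (-0.41 after median scaling, -0.08 after normexp correction). Pik3r1 was called after median scaling, at -1.31, and Pdpk1 without the slide 1 high-Chol array, at -0.54. In the latter fit diet and slide cannot be told apart. The difference furthest from 0 was that of Pik3r1, the regulatory subunit of phosphoinositide 3-kinase, with 0.51, 0.85 and 1.24 against -0.32, -0.56 and 0.26, a log2 difference of -1.07 (limma adjusted p = 0.104) and no overlap between diets, -1.19 within slide 1. Mtor and Pdpk1, kinases on the path to and from Akt, differed by -0.59 and -0.44, within slide 1 by -0.48 and -0.23. Of 9 inhibitors of the pathway, 0 were called and 0 had an unadjusted p below 0.05, with a median of 0.07. This median was -0.006 within slide 1 and after normexp correction, and -0.11 after median scaling. It lay between 0.08 and 0.21 when 1 array was left out, highest when the position 2 normal chow array was dropped. Grb10 differed by 0.42, Socs1 by 0.39 and Enpp1 by -0.38, within slide 1 by 0.17, 0.22 and -0.39.

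Among genes that insulin represses through FoxO1, 9 were tested. Of these, 6 had higher and 3 lower means, 0 were called, 2 had an unadjusted limma p below 0.05, and the median was 0.27. It was 0.04 after median scaling, 0.07 without the slide 1 high-Chol array and 0.13 without the normal chow array at position 3. G6pc, the phosphatase that releases glucose from the liver, read 5.04, 4.79 and 5.35 on normal chow, against 6.64, 6.52 and 5.59 on the high-Chol diet, a log2 difference of 1.19 (limma adjusted p = 0.104) with no overlap, 1.58 within slide 1, and it was called at 1.52 without the slide 2 array at position 3. Pdk4, the kinase that closes pyruvate dehydrogenase in fasting, differed by 1.18 (limma adjusted p = 0.152), 1.35 within slide 1. Igfbp1, a classical insulin-repressed gene, differed by 0.54, or 1.75 within slide 1, with normal chow arrays from 4.67 to 6.77 and high-Chol arrays from 4.92 to 7.64. The 3 genes with lower means were Pck1, Sesn1 and Ppargc1a. Pck1 differed by -0.35, -0.39 within slide 1, with no overlap between diets. Sesn1 differed by -0.19 and Ppargc1a by -0.18, within slide 1 by -0.03 and 0.08.

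In glucose use the calls lay on other isozymes than those known from hepatocytes. Of 17 further genes of glucose phosphorylation and glycolysis, 5 were called, all higher on the high-Chol diet, and the median of the 17 was -0.05, or 0.14 after quantile normalization, 0.23 after normexp correction and -0.29 after median scaling. Hk2 and Hk3, hexokinases of high glucose affinity, differed by 1.18 and 1.24 (limma adjusted p = 0.034 and 0.015). Pfkp, the platelet-type phosphofructokinase, differed by 1.12, and Pfkfb4, a relative of Pfkfb1 and Pfkfb3, by 1.17 (limma adjusted p = 0.035 and 0.016). Pkm, the pyruvate kinase of muscle and of most cells other than hepatocytes, read -0.54, -0.88 and -0.63 against 0.72, 0.79 and 0.45, a difference of 1.34 (limma adjusted p = 0.012). At the matching steps the differences of Pfkfb1, Pfkfb3 and Pklr had the opposite sign and were not called. The same held for Pfkfb2 (-0.65), Pfkm (-0.39, with no overlap between diets) and Pfkl (-0.29). Within slide 1 these differed by -1.19, -0.35 and 0.30. Hk1 was higher by 0.59 and not called. The count of 5 was 0 without the normal chow array at position 2 or 3 or the slide 2 array at position 2, 0 with slide as a block, 0 after normexp correction, and 6 without the slide 1 high-Chol array, where slide stands against slide. It was 2 without either of the remaining arrays, 2 after median scaling, and 0 without a brightness filter or by the methods' t-test. Within slide 1 the 5 genes differed by 0.86 (Hk2), 1.46 (Hk3), 1.08 (Pfkp), 1.01 (Pfkfb4) and 1.40 (Pkm), and after normexp correction Pfkp differed by -0.17.

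**Figure D4:**
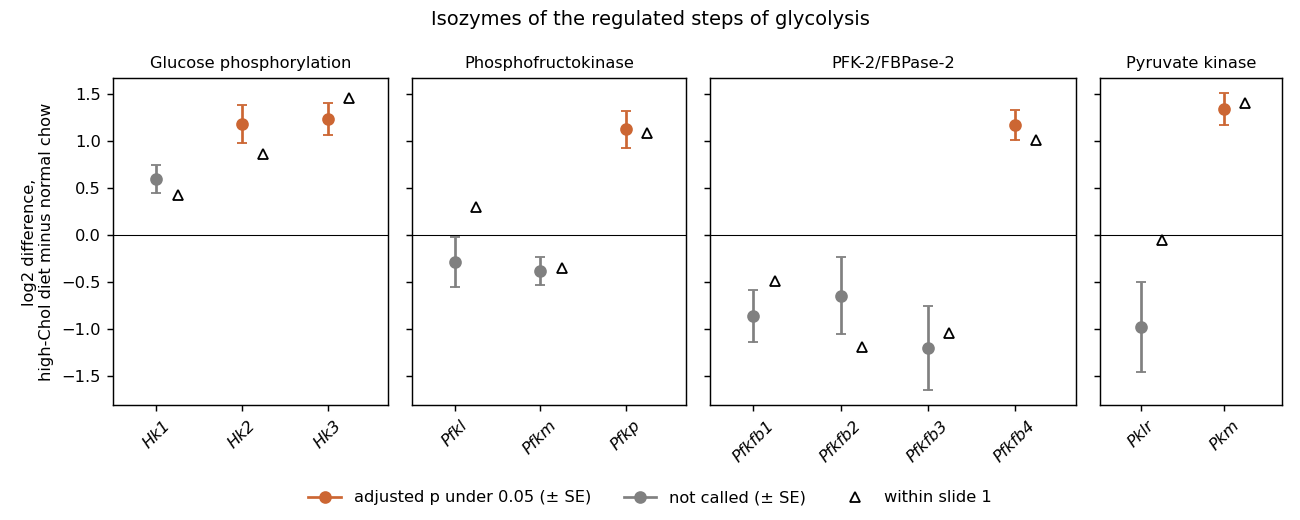
Log2 difference between the diets, high-Chol minus normal chow (vertical axis, ± SE), for isozymes at the regulated steps of glycolysis, coloured where limma's adjusted p was below 0.05, with open triangles for the difference within slide 1. The called genes, Hk2, Hk3, Pfkp, Pfkfb4 and Pkm, lie between 1.12 and 1.34, and Pfkfb1, Pfkfb3 and Pklr lie between -1.21 and -0.86. Of the other uncalled genes, Pfkfb2, Pfkm and Pfkl lie below 0 and Hk1 above it.

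The macrophage and neutrophil markers tested also had higher means on the high-Chol diet. The endothelial, lymphocyte, and stellate cell and cholangiocyte lists held both directions. Of 8 macrophage markers tested, 8 had higher means on the high-Chol diet and 4 were called (Cd68, Cd5l, Marco and Lyz2), with a median of 1.12. That count of 4 was 1 to 5 when 1 array was left out, and 0 with slide as a block, after normexp correction, without a brightness filter and by the methods' t-test. Their summed signal, in units of each array's 75th percentile, was 158 to 189 on normal chow, against 395 to 534 on the high-Chol diet. Of 3 neutrophil markers tested, S100a8 and S100a9 were called, at 3.21 and 2.90, and these 2 calls became 0 with slide as a block, after normexp correction and by the methods' t-test, while the granule genes Ngp and Camp did not pass the filter. Ltf, well above background on 4 arrays, differed by 2.18, but 0.63 within slide 1. It was called with a gene's probes averaged (1.97) and without the slide 1 high-Chol array (2.96). Of 9 hepatocyte markers, 8 had lower means, 0 were called and the median was -0.34, which ran from -0.01 after normexp correction through -0.11 after quantile normalization to -0.58 after median scaling. Without the slide 1 high-Chol array Apoa1 (-0.81) and Ttr (0.63) were called. In that fit diet and slide cannot be told apart, and 2316 genes were called higher and 761 lower of all 16730. The 9 hepatocyte markers had a summed signal of 2838 to 3140 on normal chow, against 2168 to 2425 on the high-Chol diet. These 9, Alb and Apoa1 among them, were well above background on all 6 arrays. Of 7 stellate cell and cholangiocyte markers, with a median of 0.07 (-0.16 after median scaling), 1 was called, Col1a1 at 1.04, and of 5 endothelial, 5 lymphocyte and 3 adipocyte markers 0 were called, with 1, 1 and 0 at an unadjusted limma p below 0.05. The call of Col1a1 was lost with slide as a block, after median scaling, after normexp correction, with a gene's probes averaged, without a brightness filter, by the methods' t-test and in 4 of the 6 fits with 1 array left out. Without the slide 1 high-Chol array, so again with slide against slide, Cdh5 (1.09), Cd3e (1.33), Cd3g (0.94) and Cd8a (0.69) were called. Cdh5 was called also with a trended and robust variance. The part of these cells in the values of Pfkfb1, Pfkfb3, Pklr and the called isozymes was not tested.

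Of 14 glycogen genes 10 had lower means, 0 were called, 3 had an unadjusted limma p below 0.05, and the median was -0.28. It was -0.09 after normexp correction, -0.16 after quantile normalization and within slide 1, -0.52 after median scaling, and -0.43 and -0.17 without the normal chow arrays at positions 1 and 3. Gys2, the glycogen synthase of liver, read 5.56 to 7.03 on normal chow and 4.82 to 5.54 on the high-Chol diet, a log2 difference of -1.31 (limma adjusted p = 0.145), -1.43 within slide 1, and it was called at -1.74 without the normal chow array at position 1. Slc37a4, the transporter of glucose 6-phosphate, differed by -0.76 (limma adjusted p = 0.184), -0.77 within slide 1. Of 10 carbohydrate-response regulators 8 had lower means and 0 were called, with 2 at an unadjusted p below 0.05 and a median of -0.25 (-0.04 within slide 1, -0.05 after normexp correction, -0.49 after median scaling). Onecut1, a hepatocyte transcription factor, differed by -1.14, -1.33 within slide 1, and was called at -1.52 without the slide 2 array at position 3. Of 8 genes of pyruvate dehydrogenase control 6 had lower and 2 higher means, with a median of -0.20, and 4 had an unadjusted limma p below 0.05. Of these 4, Pdk1 (-0.57), Pdk2 (-0.72) and Pcx (-0.38) were lower. Pdk3 was called at 1.27, from a dim signal that was well above background on 5 arrays, and its difference was 1.04 within slide 1 and -0.49 after normexp correction. This call was lost without any 1 of the 5 arrays other than the slide 1 high-Chol array, with slide as a block, under the filter for all 6 arrays, without a brightness filter, with a trended and robust variance and by the methods' t-test. Without the slide 1 high-Chol array it stood beside calls of Pdk1 (-0.78) and Pdk2 (-0.98), in a fit where diet and slide cannot be told apart.

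Arrays of the same diet stood apart from each other in genes that follow the hour of the day. Dbp, an output gene of the clock, read 6.57, 6.49 and 6.80 on normal chow, against 0.86, 0.86 and 5.64 on the high-Chol diet. Arntl, which peaks at the opposite phase, read -1.12, -1.71 and -3.67 against 1.19, 1.17 and -1.51, and Per2 differed by -1.99 (-3.18 within slide 1). For Dbp the slide 2 array at position 3 was the high-Chol array nearest to the normal chow mean, as it was for G6pc and Pik3r1. Among the 8 genes described here it was nearest for 1, Slc2a2, and the slide 1 array was nearest for the other 7. Of 8 such genes 0 were called by limma and 6 had an unadjusted p below 0.05. Without the slide 2 array at position 3, Dbp was called at -5.76. Nr1d2 was called after median scaling and, with slide against slide, without the slide 1 high-Chol array. Their part in the differences of the glucose genes was not tested.

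**Figure D5:**
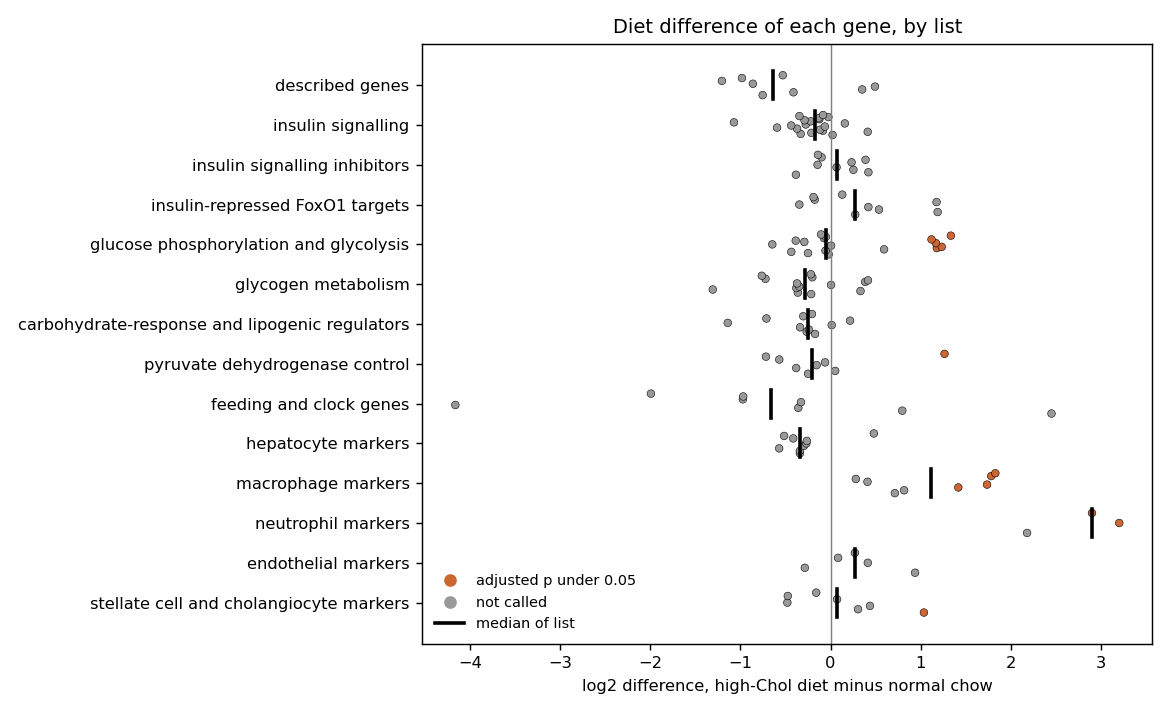
Log2 difference between the diets, high-Chol minus normal chow (horizontal axis), of each tested gene of the lists (lymphocyte and adipocyte markers left out), coloured where limma's adjusted p was below 0.05, with the median of each list as a bar. Calls lie in the glycolysis, pyruvate dehydrogenase, macrophage, neutrophil and stellate cell and cholangiocyte lists, and 0 of the 8 genes described here are coloured.

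The genes most like Pfkfb3 across the arrays were named by Pearson's r of log2 signals over 6 arrays, among 14043 genes compared, as a description. They were Pcmt1 (0.992), Sh2b1 (0.992), Pim3 (0.991), Adcy6 (0.991) and C130052G03Rik (0.987). Sh2b1 encodes an adaptor that binds the activated insulin receptor, and Pim3 a serine/threonine kinase. Pim3 read 2.72, 3.47 and 4.24 on normal chow, against 2.57, 2.72 and 2.52 on the high-Chol diet, the same order among normal chow arrays as Pfkfb3. The arrays share slide and brightness, and among the 8 genes themselves r with Pfkfb3 was 0.93 for Slc2a2, 0.89 for Gckr and 0.83 for Foxo1, and 0.41 for Pfkfb1. For Pklr it was 0.67 and for Irs1 -0.75, and Insr was not compared. These values rest on 6 points each and carry no test.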

How the data were processed

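Gene expression was measured in 6 liver RNA samples, 3 per diet. The authors deposited scanner files, in which the intensity of each spot was already background-subtracted by Agilent Feature Extraction but not yet normalized from array to array. The submitters' processing notes name version 9.1, and per the file headers slide 1 was read with 9.5 and slide 2 with 9.1. The authors also deposited a log2 value for each diet at 23458 probes, after processing in Gene Spring GX, with settings not given in the sources used here. Against the scanner output, differences between its columns had a slope of 1.00, an offset of -0.24 and a Pearson r of 0.994 (taken across probes, so without independent replicates). Its columns had medians of -0.0019 (normal chow) and -0.27 (high-Chol diet). Its direction follows the labels, and its centring stays unknown.

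Each signal was put on the log2 scale and set against the 75th percentile of its array's 43379 non-control spots. Outlier spots, 75 to 196 on an array, were dropped, and saturated spots were used. Between 50.5% and 67.2% of spots were well above background. The precision is limited by the number of arrays. Probes entered if every array of 1 diet or the other had them well above background, and the probe brightest on average stood for its gene. The test was limma's (version 3.58.1, R 4.3.3, lmFit and eBayes without covariates), with Benjamini-Hochberg adjustment over 16730 genes and a threshold of 0.05, and single genes by an exact permutation test over the 20 divisions of the arrays. The analysis was tested on simulated data. Across all genes 450 were higher and 38 lower on the high-Chol diet (329 and 73 after median scaling).

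The members and the 15 gene lists were chosen with earlier results of these data known. All members were named, and of each list the called genes, or else up to 3 genes with the largest difference among those well above background on all arrays. Named too were the 5 genes most like the member with the largest difference. One gene of the glycolysis list is not reported here and was left out of that list's counts and median. Gene names follow the array design, and current symbols came from RefSeq (GRCm38.p6), to which the accessions of 22951 probes matched. Of the remaining 146 list genes 142 were matched and 135 tested. Phlpp1, Gapdh, Pdp2 and Serpina1c were not matched, and Foxo3, Npas2, Itgam, Ngp, Camp, Adipoq and Lep were below the filter. The positions of probes come from the annotation in the files (mm7). Promoter windows are from RefSeq. Alternatives were other background correction, scaling, filters, probe rules and variance models, the slide as a block, the methods' t-test, the deposited log2 values, and leaving out each array.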

Additional observations from a re-analysis of the deposited data

How the results depend on the processing

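Across 127 recomputed differences of the 8 genes that carried a test, 124 kept their direction and their side of the threshold. Much of this was fixed in advance. Changes of filter, the fit of each probe by itself, the trended variance and the t-test left a gene's difference as it was. Where a fit called few or no genes at all, an uncalled gene could hardly change side. The count is therefore no measure of how firm the differences are. The difference of Insr turned to -0.51 after normexp correction and to -0.0055 with slide as a block, and the cause was not tested. In the deposited log2 values, whose differences are offset by -0.24, that of Irs1 was 0.25 and that of Gckr -0.65. Leaving out 1 array in turn gave 0 to 1 called genes, and Pfkfb1 ranged from -1.05 to -0.57, the lowest without the slide 1 high-Chol array (adjusted p = 0.048). Over all alternatives with a test, adjusted p-values ran from 0.048 to 1.00 for Pfkfb1 and from 0.051 to 1.00 for Pklr. Requiring all 6 arrays above background left no value for Insr. The median over all genes moved to -0.26 after median scaling and to -0.11 after normexp correction. Genes called among all genes, higher and lower, were 0 and 0 after normexp correction, 11 and 0 with slide as a block, 26 and 0 without a brightness filter, 4 and 1 by the methods' t-test, 335 and 55 with the filter for all 6 arrays, and 329 and 73 after median scaling. They were 2316 and 761 without the slide 1 high-Chol array, and 42 and 0 without the normal chow array at position 2. No paired analysis was possible because the labels number replicates 1 to 3 for both diets without saying which array holds which. Signal over background limits Insr and the dim probes of Irs1 and Pfkfb3.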
